A study of Mus musculus with 12 samples.

Results

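The secreted Wnt inhibitors followed here were 8 probes of 5 genes, *Sfrp1*, *Sfrp2*, *Sfrp4*, *Wif1* and *Dkk3*, out of 20794 probes and 9030 named genes in all. They were taken as every probe whose annotated symbol is Sfrp or Dkk followed by a digit, or Wif1. Other inhibitors, among them the frizzled-related *Frzb*, fall outside this rule and are given with the rest of the Wnt pathway. *Sfrp1*, *Sfrp4* and *Wif1* had 1 probe each, *Sfrp2* had 2 and *Dkk3* had 3. At E10.5, RNA was taken from the yolk sacs of 6 homozygous mutants, *Prdm6* del/del (*Prdm6* -/- in the labels), and hybridized to 12 cDNA microarrays with 2 colours, with a single wild type reference (*Prdm6* +/+) pooled from 6 yolk sacs in the other channel. The del allele lacks a loxP-flanked exon in every cell, removed in the germ line with a CMV-Cre deleter strain, and still gives a spliced transcript without that exon. Each yolk sac was measured on a pair of arrays with exchanged dyes, but the labels do not say which arrays form a pair. The del/del RNA was labelled Cy5 on 5 arrays and Cy3 on 5, and for replicates 8 and 9 the labels name 1 dye for both channels.

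Wnt proteins are secreted signals that bind Frizzled receptors and LRP co-receptors and thereby stabilise beta-catenin, which switches on target genes in the nucleus. Secreted frizzled-related proteins (Sfrp) carry a cysteine-rich domain like that of the Frizzled receptors and bind Wnt proteins outside the cell, and Wif1 also binds Wnt proteins directly. Dickkopf proteins (Dkk) act on the LRP co-receptors instead, with *Dkk3* as the divergent member whose effect on Wnt signalling is less clear. Wnt signalling through Frizzled receptors is known to take part in the growth of blood vessels of the yolk sac.

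The deposited values are log2 ratios, in which 0 means equal signal and 1 means double the signal in del/del, and they give no level of a gene. Neither the log base nor the direction is stated with the values. Both were read from the signed mean ratios that the study lists for the genes it selected, *Sfrp1* among them, so the sign of *Sfrp1* below is that of the study and not a separate finding. Between 20011 and 20501 probes had a value on each array, and the array medians lay between -0.06 and 0.05. Over all probes, arrays of the same labelled dye orientation correlated with a median Pearson's r of 0.12, and arrays of opposite orientation with -0.12 (-0.19 to 0.02). Since 2 arrays of 1 yolk sac are not separate samples, p-values over 12 arrays count more samples than there were yolk sacs and can be too small, and with 1 pooled reference the variation among wild type animals is not measured. The yolk sac label could not be checked against levels of marker genes, because ratios hold none.

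Among the secreted Wnt inhibitors taken by symbol, only *Sfrp1* rose in the *Prdm6* del/del yolk sacs, to 2.005 times the signal of the wild type pool. The probes of *Sfrp2*, *Sfrp4*, *Wif1* and *Dkk3* did not pass the test. For *Sfrp2* and *Dkk3* at least 1 probe was measured tightly enough that its interval lay within 1.3-fold in either direction, whereas the probes of *Sfrp4* and *Wif1* were too variable for such a limit. A probe was taken as changed at a Benjamini-Hochberg adjusted p under 0.05 over all 20516 probes tested with limma together with a change over 1.3-fold. By this rule 0.166% of all probes were higher, 0.907% were lower and 1.07% changed in either direction, and 2.7% passed with an unadjusted p in its place. Of the 8 probes of secreted Wnt inhibitors, all of which were tested, 1 was higher and 0 were lower. Since these genes were chosen with the result of *Sfrp1* known, nothing is read from that share.

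*Sfrp1* was read by probe 5802. Its log2 ratio on replicates 1 to 12 was, in that sequence, 1.04, 1.24, 0.77, 0.70, 1.34, 0.80, 0.54, 1.12, 0.79, 1.13, 1.48 and 1.08. All 12 arrays were thus above 0, with replicate 7 lowest and replicate 11 highest, as happened for 0.176% of the 18157 probes that had a value on every array. As a fold, the arrays ranged from 1.45 to 2.79. The mean was 1.003 (SD 0.28, n = 12 arrays), or 2.005-fold with a 95% interval from limma of 1.76 to 2.29 (adjusted p = 8.29e-05). When the signs of the 12 values were flipped in every combination (exact permutation, two-sided), p was 0.000488, the smallest that 12 values allow.

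**Figure D1:**
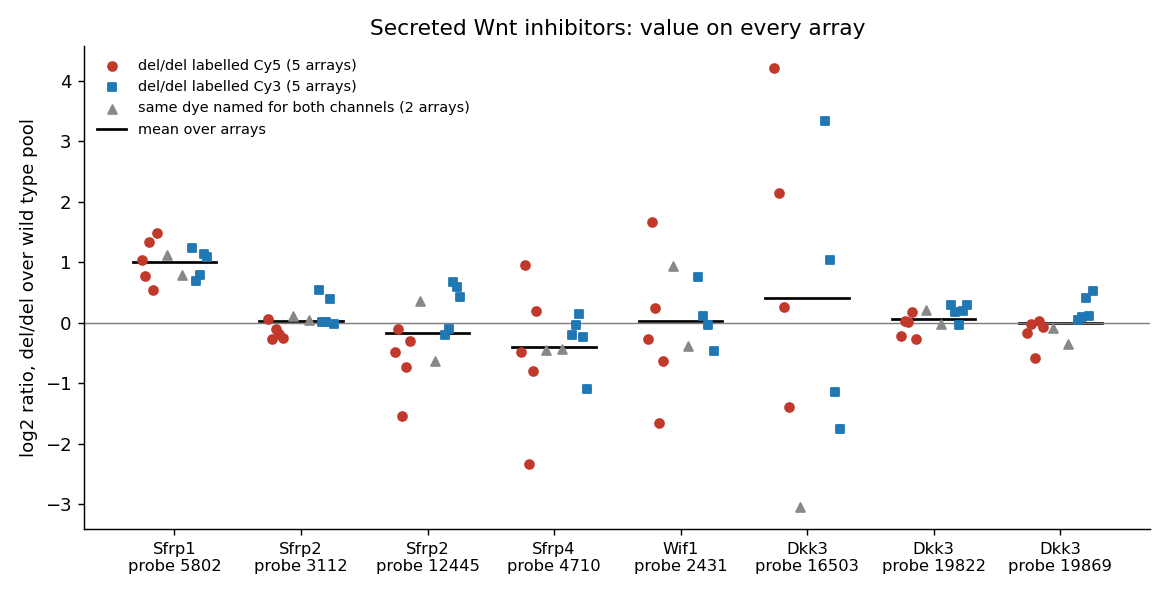
Log2 ratio of del/del over the wild type pool for each of the 8 probes on every array, with points marked by the labelled dye of the del/del RNA and a black bar for the mean. The *Sfrp1* points lie between 0.54 and 1.48, while those of the other genes fall on both sides of 0.

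*Sfrp1* was higher on all 5 arrays of either dye orientation. With del/del in Cy5 the mean was 1.04 (SD 0.39, n = 5 arrays), which did not pass in a limma fit of those arrays alone (adjusted p = 0.101), and with del/del in Cy3 it was 0.99 (SD 0.23, n = 5), which passed (limma adjusted p = 0.0474). The dye term of the fit was 0.02 on the log2 scale (adjusted p = 0.895 from limma). Over all probes the dye term had an adjusted p under 0.05 for 12.2%, so that dye effects were common on these arrays. If arrays of consecutive replicate number are taken as the dye-swap pairs, which the labels do not state, the 6 pair means of *Sfrp1* ranged from 0.74 to 1.28 and averaged 1.003 (SD 0.20, adjusted p = 0.0125 from limma).

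The SD of *Sfrp1* over the arrays was 0.28, against 0.41 for the median probe. A larger mean log2 ratio was found for 161 probes, of which 3 passed the test. These were *Tnnt2* (1.503, SD 0.48) and *Myl7* (1.28, SD 0.50), a troponin and a myosin light chain of heart muscle, and *Nyap1* (1.01, SD 0.57), an adaptor of phosphoinositide 3-kinase signalling in neurons. Among the 34 probes called higher, whose mean log2 ratios ranged from 0.38 to 1.503 with a median of 0.53, *Sfrp1* had rank 4 by mean and the smallest p. *Map1b*, a microtubule-associated protein, had a mean of 0.64 (SD 0.24, n = 12, adjusted p = 0.000698 from limma).

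**Figure D2:**
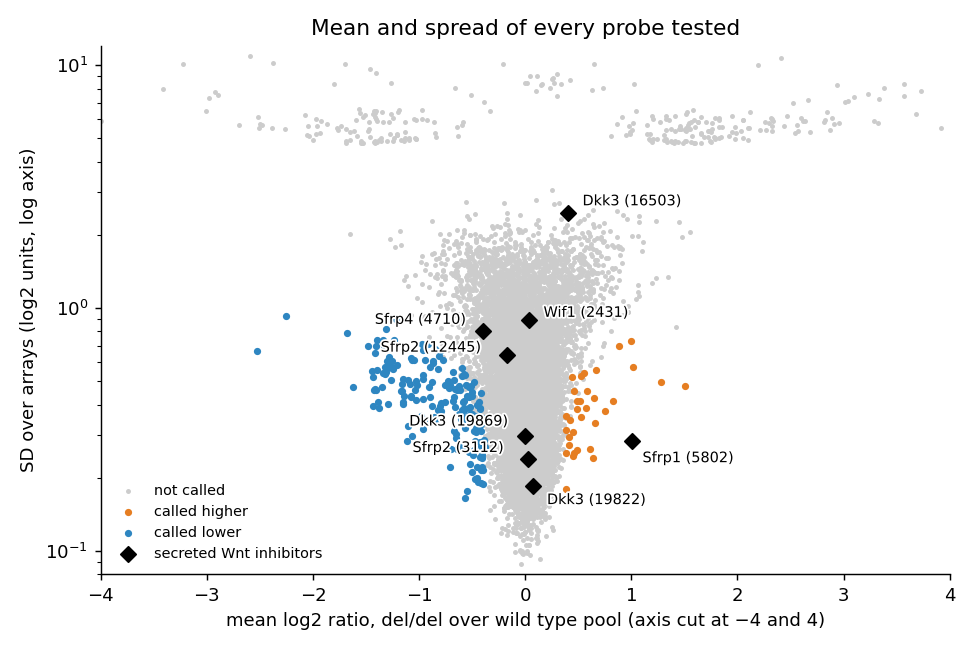
Mean log2 ratio (horizontal axis) and SD over arrays (vertical log axis) of each probe tested, with called probes in colour and the secreted Wnt inhibitors as black diamonds. *Sfrp1* (mean 1.003, SD 0.28) has 3 called probes to its right, with SDs of 0.48 to 0.57.

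*Sfrp2* is a further frizzled-related inhibitor, close in sequence to *Sfrp1*. On probe 3112 its log2 ratio ran from -0.27 to 0.54 with a median of 0.01, higher on 7 of 12 arrays. The mean was 0.03 (SD 0.24, n = 12, adjusted p = 0.904 from limma), and the 95% interval as a fold was 0.93 to 1.12. Probe 12445 ran from -1.54 on replicate 5 to 0.67 on replicate 6 with a median of -0.16, lower on 8 of 12, and had a mean of -0.17 (SD 0.64, n = 12, adjusted p = 0.688 from limma, 0.73- to 1.09-fold), or -0.077 without replicate 5. Neither probe had arrays all on 1 side of 0. What was left of the 2 probes on the 12 arrays, once mean and dye effect had been subtracted, had a Pearson's r of -0.21, given as a description.

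The sign of *Sfrp2* moved with the dye. Probe 12445 was below 0 on all 5 arrays with del/del in Cy5, with a mean of -0.63 (SD 0.56), and above 0 on 3 of 5 with del/del in Cy3, with a mean of 0.28 (SD 0.41). For probe 3112 the means were -0.15 and 0.19. The dye term had an unadjusted p of 0.00922 and 0.0306 and an adjusted p of 0.0608 and 0.119 in limma for the 2 probes, so neither passed after adjustment, and 31.7% of all probes had an unadjusted p under 0.05 for this term. Fitted without the dye term, the means of the 2 probes were the same, 0.03 and -0.17.

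*Sfrp4*, a frizzled-related inhibitor best known from bone and connective tissue, was lower on 9 of 12 arrays. Its log2 ratio on probe 4710 had a median of -0.33 and ranged from -2.33 on replicate 5 to 0.96 on replicate 3, so the arrays spread over both sides of 0. The mean of -0.40 (SD 0.80, n = 12) did not pass the test (adjusted p = 0.552 from limma), and the 95% interval of 0.54- to 1.06-fold reaches past a 1.3-fold fall and includes no change. Without replicate 5 the mean was -0.21.

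*Wif1*, which binds Wnt proteins through a domain of its own, had a value on 11 arrays of probe 2431. The log2 ratio ranged from -1.65 on replicate 7 to 1.67 on replicate 3 with a median of -0.03, higher on 5 arrays and lower on 6. The fitted mean was 0.04 (SD 0.89, n = 11, adjusted p = 0.976 from limma) and the 95% interval was 0.69- to 1.51-fold. This interval includes a 1.3-fold change of *Wif1* in either direction.

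*Dkk3* was measured by 3 probes of unequal spread. Probe 19822 had log2 ratios from -0.27 to 0.29 (median 0.10), higher on 8 of 12 arrays, and a mean of 0.07 (SD 0.18, n = 12, adjusted p = 0.700 from limma, 0.96- to 1.14-fold). Only 3.29% of all probes had a smaller SD. Probe 19869 ranged from -0.58 to 0.52 (median 0.00), higher on 6 arrays and lower on 6, with a mean of -0.00 (SD 0.30, n = 12, adjusted p = 0.990 from limma, 0.89- to 1.11-fold). Both probes thus had intervals well inside 1.3-fold in either direction, though their signal over background is unknown.

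The third *Dkk3* probe, 16503, had a value on 9 arrays only and swung from -3.06 on replicate 8 to 4.21 on replicate 3, higher on 5 arrays and lower on 4. Its mean log2 ratio of 0.40 (SD 2.47, n = 9, adjusted p = 0.878 from limma) carried a 95% interval of 0.41- to 4.30-fold. A smaller SD was found for 98.6% of all probes. The log2 ratio of this probe on replicates 2 and 3 was 3.34 and 4.21, and without either array its mean was below 0 (-0.09 and -0.08). The 2 *Dkk3* probes of smaller SD also leaned with the dye. Means for 19822 and 19869 were -0.06 and -0.16 where Cy5 carried del/del, and 0.18 and 0.24 where Cy3 did. Adjusted p of the dye term was 0.203 and 0.113 in limma. Deviations of these 2 probes over the 12 arrays had a Pearson's r of -0.00 with each other.

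**Figure D3:**
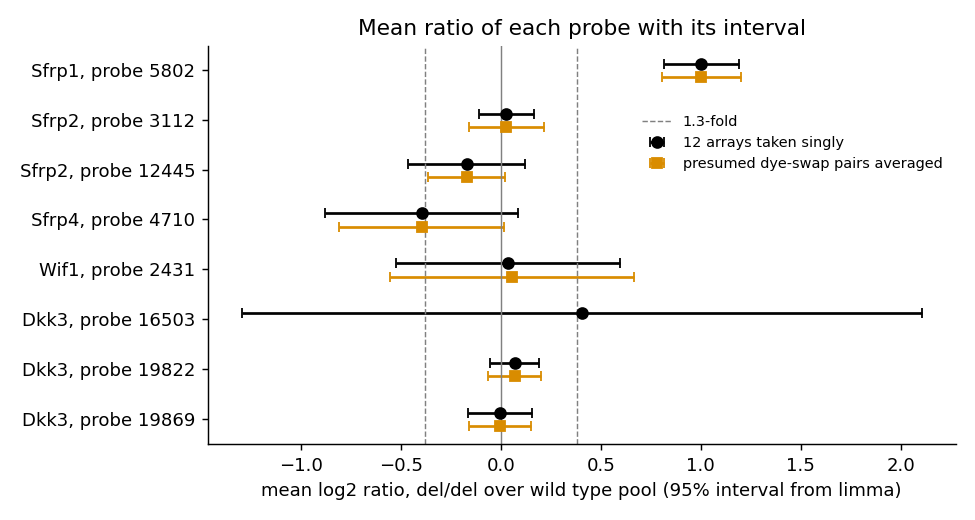
Mean log2 ratio of each probe with its 95% interval from limma, for 12 arrays taken singly (black) and for presumed dye-swap pairs averaged (orange, not given for *Dkk3* probe 16503, which had both arrays of only 3 pairs). Dashed lines mark 1.3-fold in either direction. The *Sfrp1* interval lies wholly beyond the line, and those of *Sfrp2* probe 3112 and *Dkk3* probes 19822 and 19869 wholly within both lines.

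Because all probes were read on the same arrays, the ratio of *Sfrp1* was compared with that of each other probe within arrays, in 7 comparisons, each tested by flipping the signs of the differences (exact permutation, two-sided). The ratio of *Sfrp1* was higher than that of *Sfrp2* by 0.98 on the log2 scale for probe 3112 (SD 0.33) and by 1.17 for probe 12445 (SD 0.72). It was higher than that of *Dkk3* by 0.93 for probe 19822 (SD 0.37) and by 1.01 for probe 19869 (SD 0.46). In these 4 comparisons the difference was above 0 on 12 of 12 arrays (exact p = 0.000488, adjusted p = 0.000854 over 7 comparisons). That p is the smallest that 12 values allow, and it takes arrays that share yolk sacs as separate samples. *Sfrp1* was also known to be high before it was compared. The difference was 1.40 for *Sfrp4* (SD 0.92, above 0 on 11 of 12, exact permutation adjusted p = 0.00137) and 0.96 for *Wif1* (SD 0.93, above 0 on 9 of 11, exact permutation adjusted p = 0.0114). Against *Dkk3* probe 16503 it was 0.65 (SD 2.55, above 0 on 5 of 9, exact permutation adjusted p = 0.473). Within 1 dye orientation the test has 5 arrays at most and cannot go below 0.0625. Over the 6 presumed pairs the exact p was 0.0312, the smallest that 6 values allow, for both *Sfrp2* probes, *Sfrp4* and *Dkk3* probes 19822 and 19869 (adjusted p = 0.0438), and 0.125 for *Wif1* over 5 pairs (adjusted p = 0.146).

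No other measured gene of the Wnt pathway passed the same test. Of 76 further pathway genes measured by 113 probes, 0 were higher and 0 were lower in limma. Among all probes 0.166% were higher and 0.907% lower. The count of 0 among 113 probes lies near that share, so nothing is read from it. At an unadjusted p under 0.05 together with a change over 1.3-fold, 1 was higher and 1 lower. By that rule 2.7% of all probes changed in either direction. The median log2 ratio of the 113 probes was 0.00, as it was over all probes (-0.00), and 9.73% of them had an unadjusted p under 0.05, against 11% of all probes. Wnt inhibitors that the symbol rule left out were 6 genes with 1 probe each, between -0.12 and 0.22 and with a median of 0.07. Among them *Frzb*, a frizzled-related protein under another name, had a mean log2 ratio of 0.20 and was higher on 9 of 12 arrays (SD 0.40, limma adjusted p = 0.532). *Sostdc1*, which binds LRP co-receptors, had -0.12 and was lower on 8 of 12 arrays (SD 0.21, limma adjusted p = 0.367). *Kremen1*, the receptor that removes LRP co-receptors together with Dickkopf proteins, had 0.22 and was higher on 7 of 12 arrays (SD 0.50, limma adjusted p = 0.608).

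The 13 genes of Wnt ligands and their secretion had a median log2 ratio of -0.06 over 19 probes. *Wnt6* had 3 probes that differed, with mean log2 ratios of 1.35 on probe 2467 (SD 1.34, higher on 7 of 9 arrays, limma adjusted p = 0.201), -0.35 on probe 10605 and -0.04 on probe 2466. *Wnt3* had -0.49 on probe 8083 and was lower on 9 of 12 arrays (SD 0.81, limma adjusted p = 0.403). These were the gene higher and the gene lower before adjustment. The 10 receptors and agonists had a median of 0.01 over 13 probes, and *Ror1*, a receptor tyrosine kinase for Wnt proteins, had the smallest adjusted p of the pathway at -0.33, lower on 10 of 12 arrays (SD 0.28, limma adjusted p = 0.115). *Ryk*, a Wnt receptor with an inactive kinase, had 0.15, -0.13 and -0.04 on its probes.

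In the cytoplasm, 24 genes had a median of 0.01 over 39 probes. *Ctnnbip1*, which keeps beta-catenin from its partners in the nucleus, had 0.19 (adjusted p = 0.238 from limma, higher on 9 of 12 arrays), and *Axin1*, the scaffold of the complex that destroys beta-catenin, had 0.17 on probe 19170 (adjusted p = 0.245, higher on 11 of 12). Of 13 nuclear genes with a median of -0.03 over 22 probes, the co-repressor *Tle3* had -0.17 and -0.15 on probes 3951 and 4774 (adjusted p = 0.297 and 0.419 from limma), and the co-activator *Ep300* had -0.18 on probe 20536 (adjusted p = 0.377). The 14 genes known as Wnt targets had a median of 0.05 over 22 probes. The targets *Axin2*, *Ccnd1*, *Tcf7*, *Sp5* and *Mycn* were sought but are not among them, so the counts below do not cover these genes. *Myc* had a value on 8 arrays only (SD 1.60), and the probes of *Lef1* were also counted among the nuclear genes. *Cdx2*, a homeobox gene, had 0.23 on probe 3 (SD 0.54, adjusted p = 0.488 from limma) and 0.004 on probe 20503 (SD 0.21, adjusted p = 0.989). *Cd44*, a receptor for hyaluronan, had -0.48 on probe 18398 (SD 0.90, n = 11, adjusted p = 0.547 from limma). Of the 22 target probes 0 had an unadjusted p under 0.05 in limma, against 11% of all probes. After adjustment 0 passed, against 1.07% of all probes.

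**Figure D4:**
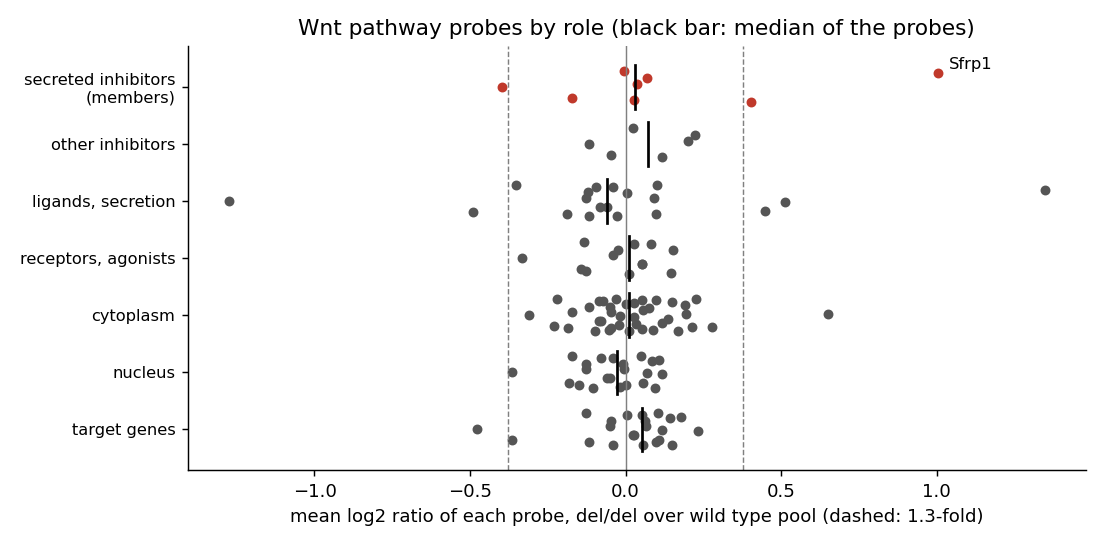
Mean log2 ratio of each Wnt pathway probe by the role of its gene, with the secreted inhibitors taken by symbol in red, black bars for the median of the probes and dashed lines at 1.3-fold. *Sfrp1* at 1.003 is the called probe, and the medians of the other roles lie between -0.06 and 0.07.

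In whole yolk sacs, more cells of a type and more RNA per cell cannot be told apart, so markers of the cell types were set beside *Sfrp1*. By the same rule 0.166% of all probes were higher and 0.907% lower, and 2.7% changed in either direction before adjustment. At these shares lists this short can hold 0 calls, so nothing is read from a list without any. Of 13 heart muscle genes of the embryo proper, *Tnnt2*, *Myl7*, *Myl4* and *Tnnc1* were higher and 0 lower, with mean log2 ratios of 1.503, 1.28, 0.64 and 0.46. The median over the 15 probes of this list was above 0 on 12 of 12 arrays, between 0.13 and 0.77. Of 13 neural genes, *Map1b*, *Uchl1* and *Syt11* (1 of its 3 probes) were higher and 0 lower, and the array medians over 21 probes ran from -0.09 to 0.26. *Crabp1*, a retinoic acid binding protein of this list, was at -0.45 and was lower before adjustment (unadjusted p = 0.00336, adjusted p = 0.136 from limma). For smooth muscle 0 of 9 genes changed in limma, with 0 also at an unadjusted p under 0.05 and over 1.3-fold. Of its 20 probes 4 had an unadjusted p under 0.05 (20%, against 11% of all probes), each with a change under 1.3-fold. That share was much the same for trophoblast and decidua (20%), visceral endoderm (19.05%), the neural list (19.05%) and endothelium (18.75%). It was larger for mesenchyme and mesothelium (44.44%), heart muscle (60%) and the erythroid list (87.5%). The smallest adjusted p of smooth muscle was 0.0722 from limma, for *Tpm1* at 0.32 on probe 2868. The remaining probes with an unadjusted p under 0.05 went both ways. They were *Tpm1* probe 10863 (0.20), *Actg2* (0.17) and *Rgs5* (-0.21, lower on 10 of 12 arrays). *Myh11* had -0.34, lower on 9 of 12 arrays, and the median of the list was -0.02. The array medians of smooth muscle ran from -0.46 to 0.41. Of 12 genes of mesenchyme and mesothelium, *Dcn* (-0.57), *Col3a1* (-0.51) and *Col1a1* (-0.43 on probe 4894) were lower and 0 higher. *Col1a1* probe 4863 had -0.20 and did not pass (adjusted p = 0.655 from limma). The array medians of this list ran from -0.49 to 0.17. Visceral endoderm (16 genes), endothelium (12) and trophoblast and decidua (4) had 0 genes changed in limma. Before adjustment, 1 gene of visceral endoderm, *Spink1*, was lower with a change over 1.3-fold, and 0 genes of endothelium and of trophoblast and decidua changed. Of the 8 lists the erythroid one had the median farthest from 0, with 7 of 8 genes lower, among them *Kel* (-1.15 on the log2 scale), a blood group protein. The median of this list over 16 probes, several of them for *Hba-a1*, was -1.15. Its array medians ran from -1.79 to -0.415, below 0 on all 12 arrays. *Ank1* counted as lower through probe 15419 (-0.65). Its probes 17722 (-0.33), 4430 (-0.19) and 3650 (-1.05, SD 6.01, n = 9) did not pass.

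From array to array, the deviations of *Sfrp1* from its mean and dye term correlated with those of the heart list median with a Pearson's r of 0.24, with the neural list at -0.06 and with smooth muscle at 0.36. For the other lists r was -0.47 (endothelium), 0.32 (trophoblast and decidua), -0.19 (visceral endoderm), 0.10 (mesenchyme and mesothelium) and 0.06 (erythroid). With single probes r was 0.45 for *Myl7*, 0.10 for *Tnnt2*, 0.05 for *Tnnc1* and *Myl4*, and -0.10 for *Map1b*. For *Uchl1* it was 0.17. For *Syt11* it was -0.08 on the called probe 17361, and 0.47 and 0.05 on probes 12358 and 9135, which were not called. These values are descriptions over 12 arrays that share yolk sacs and 1 reference pool, and the part of cells of the embryo proper in the rise of *Sfrp1* was not tested.

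**Figure D5:**
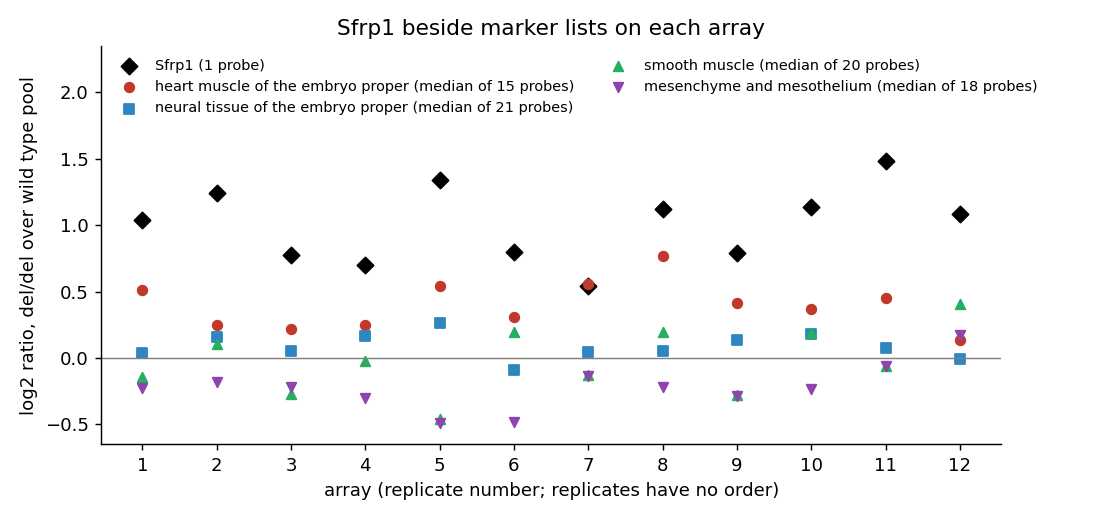
Log2 ratio of *Sfrp1* on each of the 12 arrays beside the median log2 ratio of the probes of 4 marker lists. The heart muscle median (0.13 to 0.77) is above 0 on every array and lies below *Sfrp1* on every array but replicate 7, and the mesenchyme median is below 0 on all arrays but replicate 12.

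Among 11454 probes with a symbol and a value on every array, the deviations most like those of *Sfrp1* were those of *Arid5b*, *Wfikkn2*, *Eqtn*, *Kyat1* and *Clta*, with Pearson's r between 0.87 and 0.89 over 12 arrays. Their mean log2 ratios lay between -0.25 and 0.30, and none passed the test (smallest adjusted p = 0.108 from limma). The most opposite were *Rab3ip*, *Sec61b*, *Senp2*, *Manf* and *Uqcrq*, with r between -0.89 and -0.83. These are the extremes of 11454 correlations over only 12 arrays, and they reach about the same size at both ends. No value for chance was computed, so nothing is read from these names. *Rab3ip* had an adjusted p of 0.0313 in limma with a mean log2 ratio of 0.26, which is under 1.3-fold, and the other 4 did not pass. *Sfrp1* deviations correlated with those of *Sfrp2* at 0.38 (probe 3112) and -0.06 (probe 12445), with *Sfrp4* at -0.28, and with *Dkk3* at -0.22 (probe 19822) and -0.26 (probe 19869).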

How the data were processed

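Gene expression was measured on 12 cDNA arrays, and the series table holds 20794 probes, 18157 of them with a value on every array. The values deposited by the authors are log2 ratios of del/del over the wild type pool, normalized before deposit by a method not given in the sources used here. The paper's methods name amplified RNA, whereas the labels name labelling of total RNA. Ratios were used as deposited. No intensities of single spots entered the work, which leaves the signal over background unknown, and precision is limited by how many arrays there are. Symbols came from the array annotation, updated by gene ID through the gene table of GRCm38.p6 (12771 probes with 1 symbol, 8023 with none). For each probe with at least 8 values, limma 3.58.1 (lmFit, then eBayes; R 4.3.3) tested the mean against 0 with a dye code (1, -1, and 0 for replicates 8 and 9). The thresholds, an adjusted p under 0.05 and over 1.3-fold, are those of the paper's methods. The fit was tested on simulated data with independent arrays. As those arrays share no yolk sacs, that test cannot show how far the p-values here are too small. Probes of a gene were tested singly, and a gene counted as changed if at least 1 probe passed.

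The members and gene lists were chosen with earlier results of these data known. Named genes were the members, *Map1b*, called pathway genes or otherwise the 2 of each role with the smallest adjusted p, up to 2 genes of each marker list, the 5 most and 5 least like *Sfrp1*, and the 3 most like each *Dkk3* probe with a value on every array. *Kremen1*, *Nyap1*, *Tnnc1*, *Myl4*, *Uchl1*, *Col1a1*, *Crabp1* and *Spink1* were named after their values were seen. So were *Actg2*, *Rgs5*, *Myh11*, *Lef1*, *Myc*, *Hba-a1* and *Ank1*. Alternatives covered centring, scaling, dye codes, subsets of arrays, pairs, direction, missing values, limma options and thresholds.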

Additional observations from a re-analysis of the deposited data

How the results depend on the processing

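*Sfrp1* kept its call under 15 of 18 alternatives and without each single array (log2 ratio 0.96 to 1.05, adjusted p 0.000108 to 0.000396 from limma). Some of the 18 could not have removed it. With 1 probe and a value on all 12 arrays, averaging probes or requiring every array left its mean unaltered. Dropping the fold threshold could only loosen the rule. *Sfrp1* lost the call with only the 5 arrays with del/del in Cy5 (1.04, adjusted p = 0.101 from limma). It also lost the call with limma's robust and trend options together (1.003, adjusted p = 0.408), a setting that called 0 probes. With the arrays labelled Cy3 turned it was 0.18 (adjusted p = 0.416 from limma), and again 0 probes were called. Turning reverses the sign of 5 arrays that were all above 0 for *Sfrp1*, so its mean had to fall. For the other settings the cause was not tested. The other members and the Wnt pathway genes had 0 calls under the alternatives. Signs of uncalled means changed; the alternatives for *Sfrp2*, *Sfrp4* and *Wif1* were added after seeing the data. *Dkk3* probe 19822 was -0.056 on the Cy5 arrays and -0.084 with arrays turned. Probe 19869 was 0.039 on the 10 arrays with unambiguous dyes, 0.24 on the Cy3 arrays, and -0.037 to 0.034 leaving out single arrays. With the *Dkk3* probes averaged, the gene was at 0.12. Probe 16503 ran from -0.092 to 0.84 when single arrays were left out, and was below 0 without replicate 2 or 3. *Sfrp2* probe 3112 was -0.15 on the Cy5 arrays, -0.13 with arrays turned and -0.008 to 0.048 without single arrays. With the *Sfrp2* probes averaged, the gene was at -0.072. Probe 12445 was 0.28 on the Cy3 arrays and -0.22 to -0.077 without single arrays, the latter without replicate 5. *Sfrp4* was -0.55 to -0.21 without single arrays, the latter without replicate 5. *Wif1* was -0.018 on the 10 arrays, -0.12 on the Cy5 arrays, -0.036 with arrays turned and -0.14 to 0.19 without single arrays.

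The difference of *Sfrp1* from *Dkk3* missed 0.05 within an orientation, where it cannot pass (exact permutation p = 0.0625), at 1.09 and 0.81 for probe 19822 and 1.20 and 0.75 for probe 19869 on the Cy5 and Cy3 arrays, and with arrays turned (0.26 and 0.38). For probe 16503 it was -0.27 on the Cy5 arrays. The difference of *Sfrp1* from the average of the *Dkk3* probes with a value on an array was 0.89 (exact permutation p = 0.0044). That is a value for the gene and not for probe 16503. Over all probes, 34 were higher and 186 lower. The number higher was 21 on the 10 arrays, 3 and 1 on the Cy3 and Cy5 arrays, 0 turned, 10 as presumed pairs, 3 as pairs with 1 array sufficing (chosen after seeing the data), 22 with no dye term, 0 with robust and trend, 52 with no fold threshold and 13 at 1.5-fold. It ran from 18 to 35 without single arrays, and was 21, 19, 18 and 20 without replicates 1, 6, 7 and 10. The number lower was 41 and 0 on the Cy3 and Cy5 arrays, 0 turned, 103 as pairs, 35 with 1 array sufficing, 0 with robust and trend, and 119 at 1.5-fold. The labels pair no arrays, so the pairs used here are presumed from consecutive numbers.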

Other observations

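Among the probes with a symbol and a value on every array, those whose deviations were most like *Dkk3* probe 19822 were *Gnaz*, *Anks3* and *Slc22a18* (Pearson's r 0.92, 0.88 and 0.88 over 12 arrays), and those most like probe 19869 were *Chmp1b*, *Atp8a2* and *Plcg1* (0.94, 0.93 and 0.93). These are the highest of 11454 correlations for each probe, given as a description, and none of these probes passed the test in limma.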
